A study of Mus musculus with 4 samples.

Results

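The genes described here are 9 genes of macrophages and of their alternative activation, *Csf1r*, *Adgre1*, *Cd68*, *Lyz2*, *Mrc1*, *Cd163*, *C1qa*, *C1qb* and *Retnla*, out of 22911 genes with a named probe on the array. They were chosen by symbol, with earlier results of these data known, and are covered by 13 probes with 1 spot each. Macrophages are tissue phagocytes that live on signals through the receptor for colony-stimulating factor 1, and they carry scavenger receptors, lysosomal proteins and the C1q subunits of complement. In response to interleukin-4 or interleukin-13, acting through the transcription factor STAT6, mouse macrophages take on the state called alternative activation, for which *Retnla* and *Mrc1* are textbook markers. In tumors, macrophages with such features are known for tissue remodeling and for restraining T cells.

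The RNA came from subcutaneous tumors that formed after *Bcr-Abl*+ GFP+ hematopoietic progenitor cells in Matrigel, 15000 per mouse, were injected into wild-type (Wt) or *Sipa1*-/- mice of strain C57BL/6Ncr at the age of 8 weeks. On day 12, mesenchymal stroma cells (MSCs) were sorted as cells lacking GFP, CD45, Ter119 and CD31, and CD8+ T cells as GFP-negative cells with TCRβ and CD8. Each cell type of each genotype was measured on 1 one-color Agilent array, and 5 mice per genotype were used, with pooling not stated in the sources used here. There is thus no replicate, no test and no p-value, and the number of arrays limits the precision.

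Levels are log2 signals minus the 75th percentile of the array, so that 0 is the 75th percentile, and a log2 ratio is the difference of such levels between a pair of arrays. A gene counted as measured in a pair when a probe passed the quality flags on both arrays, and as changed when it differed at least 2-fold, a log2 ratio of 1. Probes printed on 10 spots of an array had a median SD between 0.040 and 0.044, which is spot noise and not the spread between mice. From it, spot noise alone gives a log2 ratio an SD of about 0.062. Both probes of *Sipa1*, the gene knocked out, were lower on the *Sipa1*-/- arrays, by 2.37-fold and 3.0-fold for MSCs and by 3.19-fold and 4.13-fold for CD8+ T cells, and were well above background on each array.

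Between the genotypes, 8 of the 8 members measured in MSCs were higher in *Sipa1*-/-, where 7917 of all 15298 genes measured were. The difference reached 2-fold for 4 members, *Retnla*, *Mrc1*, *C1qa* and *C1qb*, where 19.3% of the 15298 genes measured were that much higher. Only *Retnla* remained 2-fold higher under the alternative called normexp here, 1 of 8 members where 11.9% of all genes were. It takes the median spot signal, models the background and adds an offset of 50, and which of these changes moved the count was not tested. In the authors' series matrix, which scales each array by its own constant, 6 of 8 members were, and 24.0% of all genes. None was at least 2-fold lower, where 11.3% of all genes were. The median log2 ratio of the 8 members was 1.02, against 0.04 over all genes measured. *Cd163* was not well above background on the Wt array and enters only with a bound, which brings the median to 1.04. In a mixed sort of this kind, fewer cells of a type and less RNA per cell cannot be told apart.

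The same genes were closer to level in CD8+ T cells. The median log2 ratio of the 9 members was 0.12, against -0.02 over all 14339 genes measured, and it turned to -0.03 under a shift by the median. *Retnla* was at least 2-fold higher on the *Sipa1*-/- array, 1 of 9 members, where 2.66% of all genes were. No member was at least 2-fold lower, where 1.4% of all genes were. *Lyz2* and *Cd163* had ratios below 0.

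**Figure D1:**
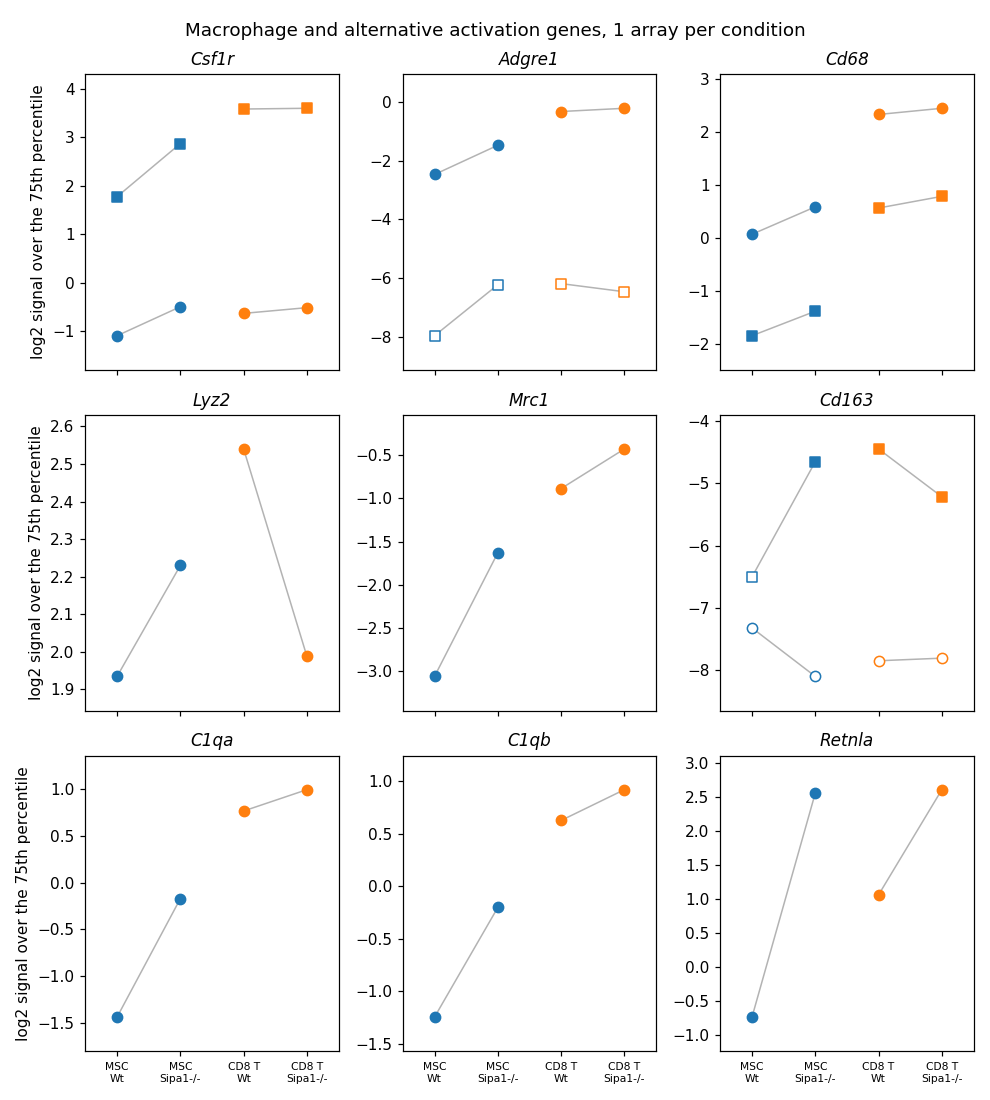
Level of each probe of the 9 genes on the 4 arrays, as log2 signal over the 75th percentile of the array, with MSCs in blue and CD8+ T cells in orange. Each panel has its own scale, circles and squares are different probes of a gene, and open symbols are spots not well above background. *Retnla* is higher on both *Sipa1*-/- arrays than on their Wt partners, and *Lyz2* is higher in MSCs and lower in CD8+ T cells.

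*Retnla* encodes a small secreted resistin-like protein also known as Fizz1. In MSCs its level was -0.73 in Wt and 2.56 in *Sipa1*-/-, while CD8+ T cells had 1.06 in Wt and 2.61 in *Sipa1*-/-. The *Sipa1*-/- array was brighter by 9.77-fold in MSCs and by 2.92-fold in CD8+ T cells, with 23 and 128 genes at a larger ratio. The *Sipa1*-/- arrays of the cell types lay within 0.05 of each other on the log2 scale, while on the Wt arrays MSCs were 3.47-fold lower than CD8+ T cells.

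*Mrc1* encodes the mannose receptor CD206, an endocytic receptor for glycoproteins. Its level was -3.06 and -1.63 on the Wt and *Sipa1*-/- MSC arrays and -0.89 and -0.43 on the Wt and *Sipa1*-/- CD8+ T arrays. The genotypes differed by 2.70-fold for MSCs and by 1.37-fold for CD8+ T cells. The MSC ratio of 1.43 came to 0.94, under 2-fold, with normexp. *Cd163*, the scavenger receptor for hemoglobin bound to haptoglobin, was close to background, and 1 of its 2 probes was not well above background on any array. The other probe was not well above background on the Wt MSC array and was at -4.66 on the *Sipa1*-/- MSC array, which makes *Sipa1*-/- at least 2.31-fold higher. Such a bound sets the bright probe against the lowest signal among probes well above background on the dim array, or the dim probe's own signal where that is higher. With no flags, which lets in the probe at background with its ratio of -0.78, the MSC ratio of the gene was 0.53. The brighter probe went the other way in CD8+ T cells, from -4.45 in Wt to -5.22 in *Sipa1*-/-, 1.70-fold lower. That ratio of -0.77 shrank to -0.15 with normexp and to -0.36 with no flags.

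*C1qa* and *C1qb* encode chains of C1q, the recognition unit of the classical complement pathway, which macrophages make in most tissues. *C1qa* was at -1.43 and -0.17 on the Wt and *Sipa1*-/- MSC arrays and at 0.76 and 0.99 on the CD8+ T arrays. *C1qb* was at -1.25 and -0.20 in MSCs and at 0.63 and 0.92 in CD8+ T cells. The *Sipa1*-/- MSC array was thus brighter by 2.40-fold for *C1qa* and 2.06-fold for *C1qb*, and the CD8+ T arrays by 1.17-fold and 1.23-fold. *C1qc*, which encodes the remaining C1q chain and is not among the 9 genes, had a ratio of 1.40 for MSCs and 0.51 for CD8+ T cells. Under normexp the MSC ratios of *C1qa* and *C1qb* were 0.97 and 0.84, and under the median shift that of *C1qb* was 0.90, all below the 2-fold limit. The CD8+ T ratios of 0.23 and 0.29 were 0.08 and 0.15 under the median shift.

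*Csf1r* encodes the receptor for CSF1 and IL-34, on which most macrophages depend. Its brighter probe was at 1.78 and 2.87 on the Wt and *Sipa1*-/- MSC arrays and at 3.59 and 3.60 on the Wt and *Sipa1*-/- CD8+ T arrays. The dimmer probe was at -1.10 and -0.50 in MSCs and at -0.64 and -0.52 in CD8+ T cells. The probes disagree in the size of the MSC difference, 2.14-fold for the brighter and 1.51-fold for the dimmer, and their mean gives 1.80-fold. The MSC ratio of 0.85 passed 2-fold in the series matrix, at 1.05. In CD8+ T cells they were 1.01-fold and 1.09-fold higher on the *Sipa1*-/- array, and the mean ratio of 0.07 turned to -0.08 under the median shift.

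*Adgre1* encodes F4/80, the surface protein most used to stain mouse macrophages. One of its 2 probes was not well above background on any array. The other was at -2.47 and -1.48 on the Wt and *Sipa1*-/- MSC arrays, 1.99-fold apart and so just short of the 2-fold limit, and at -0.33 and -0.22 on the CD8+ T arrays. It passed 2-fold in MSCs in the series matrix, at 1.20, and with no flags, at 1.36. *Cd68*, which encodes a glycoprotein of late endosomes and lysosomes, differed by 1.41-fold between the MSC arrays, with 1.43-fold and 1.38-fold for its 2 probes. In CD8+ T cells its probe that passed the flags was at 2.33 and 2.45, and the other failed the flag for non-uniform background. The CD8+ T ratios of 0.11 for *Adgre1* and 0.12 for *Cd68* turned to -0.04 and -0.03 under the median shift, and that of *Adgre1* to -0.08 with no flags.

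*Lyz2* encodes lysozyme M, a bacteria-degrading enzyme of macrophages and neutrophils alike. Its level in MSCs was 1.93 in Wt and 2.23 in *Sipa1*-/-, against 2.54 in Wt and 1.99 in *Sipa1*-/- CD8+ T cells. It had the lowest MSC ratio of the 8 measured members, 0.30, and a CD8+ T ratio of -0.55. The MSC ratio was 0.16 under the median shift and 0.50 in the series matrix. The related *Lyz1*, not among the 9 genes, had 0.55 and -0.46. Markers of neutrophils, which express *Lyz2*, moved in the same direction in CD8+ T cells. In these cells 8 of 11 measured neutrophil genes were lower in *Sipa1*-/- by 2-fold or more, where 1.4% of all genes were. The median of the neutrophil genes was -1.27, and their part in the *Lyz2* value was not tested. The summed signal of the neutrophil list, in multiples of the 75th percentile of the array, was 642.4 in Wt and 338.3 in *Sipa1*-/- CD8+ T cells, and 735.9 and 827.6 on the Wt and *Sipa1*-/- MSC arrays. *S100a9* was its brightest gene on each array, and all of its 11 genes with a probe were well above background.

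**Figure D2:**
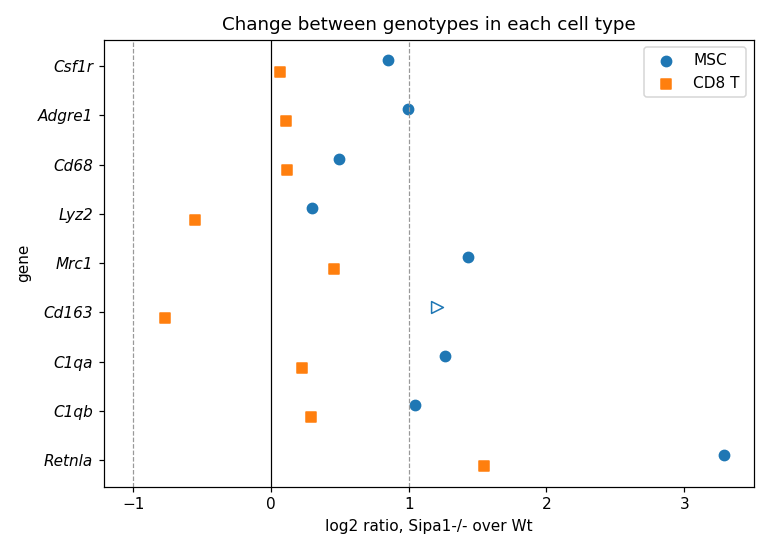
Log2 ratio of *Sipa1*-/- over Wt for each gene in MSCs (blue circles) and CD8+ T cells (orange squares), with dashed lines at 2-fold. The open triangle is the lower bound for *Cd163* in MSCs. For each of the 8 genes measured in both pairs the MSC value lies to the right of the CD8+ T value. The share of all genes with a larger ratio in MSCs was not counted.

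The log2 ratio in MSCs exceeded that in CD8+ T cells for each of the 8 members measured in both pairs, by 0.37 for *Cd68* at the least and by 1.74 for *Retnla* at the most. The *Cd68* ratio is the mean of 2 probes in MSCs and that of 1 probe in CD8+ T cells. On the shared probe the ratios were 0.52 and 0.12, and with normexp those of the gene were 0.38 and 0.15. For *C1qa* the excess was 1.04. Ratios spread more widely in MSCs over all genes. There 19.3% were at least 2-fold higher and 11.3% lower, against 2.66% and 1.4% in CD8+ T cells. The share of all genes with a larger ratio in MSCs was not counted. With 1 array per condition this difference was not tested.

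Between the cell types, the macrophage genes were lower in MSCs than in CD8+ T cells of Wt mice for 8 of the 8 members measured. Of these, 7 were at least 2-fold lower, where 12.8% of 14225 genes were, and 0 were at least 2-fold higher, where 17.3% were. The median log2 ratio was -2.01, and -0.06 over all genes measured. *Cd68* was 4.80-fold lower, *C1qa* 4.59-fold, *Mrc1* 4.52-fold and *Adgre1* 4.41-fold. *Csf1r*, at -1.14, was no longer 2-fold lower in the series matrix, at -0.68, and its dimmer probe was 1.38-fold lower against 3.51-fold for the brighter. *Cd163* was at least 2.66-fold lower, and the median with this bound was -1.87.

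In *Sipa1*-/- mice the gap between the cell types was narrower. Of 9 members measured, 5 were at least 2-fold lower in MSCs, where 18.7% of 14300 genes were, and 0 were at least 2-fold higher, where 21.9% were. The median was -1.12, and -0.18 over all genes measured. *Cd68* remained 3.64-fold lower, and *Adgre1*, *Mrc1*, *C1qa* and *C1qb* were between 2.18-fold and 2.39-fold lower. In the series matrix these 4 fell short of 2-fold, at -0.73, -0.68, -0.64 and -0.59, which leaves *Cd68* alone where 9.49% of all genes were 2-fold lower, and *Cd163* passed 2-fold upward, at 1.09. *Mrc1* and *C1qb* also fell short with normexp, at -0.97 and -0.99, and *Adgre1* with no flags, at -0.51. The median moved to -0.59 in the series matrix and to -0.51 with no flags. *Retnla*, at -0.05, and *Csf1r*, at -0.36, turned to 0.48 and 0.17 in the series matrix, and *Cd163*, at 0.56, turned to -0.12 under normexp. These ratios share arrays with those between the genotypes and are given side by side.

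Ordered by level, 6 of the 8 members that passed the flags on all 4 arrays had the same order, *Sipa1*-/- CD8+ T cells first, then Wt CD8+ T cells, *Sipa1*-/- MSCs and Wt MSCs, which 6.26% of all 13766 such genes had. These were *Csf1r*, *Adgre1*, *Cd68*, *Mrc1*, *C1qa* and *C1qb*, of which the first 3 had their CD8+ T arrays the other way round under the median shift. In the series matrix *Csf1r* was higher in *Sipa1*-/- MSCs than in *Sipa1*-/- CD8+ T cells, by 0.17. The order of *Csf1r* is that of the mean of its probes, and the dimmer one was highest in *Sipa1*-/- MSCs, 0.02 above *Sipa1*-/- CD8+ T cells. The CD8+ T arrays lay 0.07 apart for *Csf1r*. Spot noise gives a ratio of single spots an SD of about 0.062, and the mean of 2 probes a smaller one. Wt MSCs were lowest for *Retnla* as well. For *Lyz2*, with 1 probe, the levels of Wt MSCs and *Sipa1*-/- CD8+ T cells, 1.93 and 1.99, differed by less than the SD for single spots.

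The sorts were checked against marker genes. Of the CD8 T cell markers, 10 of 10 were well above background on both CD8+ T arrays, with summed signals of 979.6 for Wt and 956.9 for *Sipa1*-/- cells, against 27.5 and 18.3 on the MSC arrays. *Cd2* made up 61.4% of the Wt MSC sum, and in MSCs its ratio was -3.52 and that of *Lck* -1.07. The other 6 of 8 markers measured in MSCs were higher in *Sipa1*-/-, as the macrophage genes were, 4 of them at least 2-fold, with *Cd3g* at 1.43, *Ccl5* at 1.41 and *Cd8b1* at 1.31. Of all genes measured in MSCs, 19.3% were at least 2-fold higher. With normexp 1 of the 8 was at least 2-fold higher, and 11.9% of all genes. The median of the 8 was 0.88, and 0.52 with normexp, and its relation to the macrophage genes was not tested. *Cd8a* was not well above background on the Wt MSC array and *Gzmk* on neither MSC array. *Ccl5* was the brightest of these markers on the CD8+ T arrays. The 10 fibroblast markers summed to 1011 and 1589 on the Wt and *Sipa1*-/- MSC arrays, led by *Col1a2*, and to 206.3 and 300.1 on the CD8+ T arrays, led by *Thy1*, which T cells also express. In CD8+ T cells, 9 of 10 fibroblast genes were at least 2-fold higher on the *Sipa1*-/- array, where 2.66% of all genes were. Their median was 1.57. In MSCs, 5 of 9 were, where 19.3% of all genes were, and the median of the 9 was 1.14. The part of the fibroblast genes in the value of *Retnla* was not tested.

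Macrophages carry CD45, which the MSC sort was set to leave out. *Ptprc*, the gene of CD45, was nevertheless well above background on the MSC arrays, at 2.68 in Wt and 1.18 in *Sipa1*-/- by its brightest probe. The list of 6 pan-leukocyte genes ran against the macrophage genes. In MSCs 5 of 6 were at least 2-fold lower in *Sipa1*-/-, with a median of -1.85, where 11.3% of all genes were that much lower. The summed signal was 123.1 on the Wt array, led by *Coro1a*, and 34.9 on the *Sipa1*-/- array, led by *Cd52*. On the CD8+ T arrays it was 550.0 and 526.5, led by *Cd52*. B-lineage markers were lower still, 9 of 9 at least 2-fold lower in *Sipa1*-/- MSCs with a median of -4.16, and their summed signal was 687.7 on the Wt array, led by *Vpreb1*, and 43.6 on the *Sipa1*-/- array, led by *Vpreb3*. On the Wt and *Sipa1*-/- CD8+ T arrays it was 29.9 and 22.2, led by *Cd79b*. There 3 of 9 genes were at least 2-fold lower in *Sipa1*-/-, *Igll1* at -2.21, *Vpreb1* at -2.04 and *Vpreb3* at -1.82, where 1.4% of all genes were. All genes of both lists were well above background on each array. What part the lower B-lineage RNA has in the higher MSC ratios of the macrophage genes was not tested.

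Dendritic cells share several macrophage genes. Of 10 measured dendritic cell markers, 2 passed 2-fold upward and 1 downward in *Sipa1*-/- MSCs, with a median of 0.20. Of 11 in CD8+ T cells 1 was higher and 0 lower, with a median of 0.32. The shares of all genes were 19.3% upward and 11.3% downward in MSCs, and 2.66% and 1.4% in CD8+ T cells. Under the median shift 0 of the 10 markers passed upward in MSCs, where 16.8% of all genes did. The MSC median turned to -0.31 over 11 genes with no flags, and the CD8+ T median was 0.17 under the median shift. The summed signal of the dendritic cell list was 117.2 and 145.6 on the Wt and *Sipa1*-/- MSC arrays, led by *Siglech*. It was 445.1 and 558.2 on the CD8+ T arrays, led by *H2-Ab1*. *Siglech* made up 65.5% and 50.5% of the Wt and *Sipa1*-/- MSC sums, by a probe between 6.20 and 6.66 on the 4 arrays. *Xcr1* was not well above background on either MSC array. Probes differ in brightness, so sums can be set side by side between arrays but not between lists. Those of eosinophils, basophils and mast cells summed to between 1.57 and 2.67 on the 4 arrays, those of adipocytes to between 0.88 and 1.96, those of lymphatic and vascular endothelial cells to between 0.96 and 2.01, and those of keratinocytes to between 0.59 and 4.44. *Fabp4*, which macrophages also express, was the brightest adipocyte marker on each array. The eosinophil peroxidase gene *Epx* was well above background on 1 array, that of Wt CD8+ T cells. In MSCs the medians of these 4 lists were -0.27 over 7 measured genes, 0.68 over 3, 0.34 over 5 and 0.80 over 4, and in CD8+ T cells 0.11 over 9, 0.17 over 3, -0.03 over 3 and 0.02 over 3. With normexp the MSC medians came to -0.08, 0.16, 0.10 and 0.44, while the adipocyte median rose to 1.67 over 6 genes with flags on 1 array and 1.93 over 7 with no flags, and the endothelial one to 0.63 over 7 with no flags. Each of the CD8+ T medians turned sign under at least 1 alternative, that of the adipocyte list to -1.72 over 6 genes with flags on 1 array and to -1.34 over 7 with no flags.

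Other genes of macrophages, in lists also chosen with earlier results of these data known, followed the members in part. Of 27 measured genes for macrophage surface and lysosomal proteins, 23 were higher in *Sipa1*-/- MSCs, 13 of them at least 2-fold, and 0 were at least 2-fold lower, with a median of 0.98 that fell to 0.53 with normexp. *Mertk*, a receptor for the uptake of dying cells, had the largest ratio of the list, 2.89, followed by *Gpnmb* with 1.95 and *Trem2* with 1.94. *Mertk* was near background on the Wt arrays, at -5.21 for MSCs and -4.96 for CD8+ T cells. The lowest levels well above background there were -5.86 and -5.56. *Fcgr2b*, *Cx3cr1* and *Cd14* were the lowest, at -0.64, -0.63 and -0.39. The fibroblast markers had a median of 1.14 in the same pair, and their part was not tested. Between the cell types in *Sipa1*-/-, 7 of 27 list genes were at least 2-fold higher in MSCs and 10 lower. Over all genes 21.9% were higher and 18.7% lower. The higher list genes were led by *Gpnmb* at 4.22, *Slc40a1* at 3.92 and *Axl* at 3.91. *Hmox1*, *Apoe*, *Mertk* and *Ctsb* followed at 1.99, 1.90, 1.87 and 1.70. Of 28 measured in CD8+ T cells, 19 were higher, 0 of them at least 2-fold, and the median of 0.15 fell to 0.00 under the median shift. Among all 14339 genes measured there, 6606 were higher, and 2.66% at least 2-fold. *Mertk*, *Gpnmb* and *Trem2* again had the largest ratios of the list, 0.76, 0.73 and 0.62. The lowest was *Cd14*, a coreceptor for endotoxin, at -2.43, and *Slc40a1*, the iron exporter ferroportin, was at -1.17. *Fcer1g*, a signaling chain of Fc receptors, was at -0.65. *Siglec1* and *Vsig4*, which mark resident macrophages of lymphoid organs and liver, were not well above background on any array. *Ly6c2*, a surface protein of monocytes and of some T cells, was the brightest gene of the list on each array.

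Of the ligands of the CSF1 receptor, *Csf1* had a ratio of 1.49 and *Il34* of 1.99 in MSCs, and 0.02 and 0.54 in CD8+ T cells. The brightest *Csf1* probe was lower in *Sipa1*-/- CD8+ T cells, at 1.10 in Wt and 0.64 in *Sipa1*-/-. *Csf1* and *Il34* were 2 of the 5 genes measured in MSCs from the list of these ligands and the myeloid growth factor receptors. The receptor genes *Csf3r*, *Csf2ra* and *Csf2rb* had -0.22, -0.19 and -0.19 in MSCs. The median of the list was -0.19 for MSCs and turned to 0.65 over 6 genes with flags on 1 array, 0.07 under quantile normalization and 0.02 in the series matrix. For CD8+ T cells it was 0.01 over 6 genes and turned to -0.13 under the median shift and -0.05 with the brightest probe, with *Csf2* at 0.27. *Csf3r*, the receptor of granulocyte colony-stimulating factor, was the brightest of them on each array.

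The transcription factors of macrophages were split. Of 9 measured in MSCs, 5 were higher and 2 were lower in *Sipa1*-/- by 2-fold or more, with a median of 1.04. The shares of all genes were 19.3% higher and 11.3% lower. *Klf4* was at 1.84, *Cebpa* at 1.59 and *Maf* at 1.57. *Irf4*, which plasma cells and other B-lineage cells also use, was at -2.94, *Irf5* at -2.30 and *Spi1*, the gene of PU.1, at -0.97. Of 9 in CD8+ T cells, 1 was at least 2-fold lower, *Cebpb* at -1.20, where 1.4% of all genes were. The median of the 9 was 0.33, or 0.19 under the median shift. *Maf*, at 0.70, and *Irf5*, at 0.56, had the largest ratios there. *Klf4* was the brightest gene of the list on the MSC arrays and *Irf8* on the CD8+ T arrays.

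Genes of the IL-4 and IL-13 pathway bear on alternative activation. Of 11 measured in MSCs, 4 passed 2-fold upward in *Sipa1*-/- and 1 downward, with a median of 0.79, or 0.53 with normexp. The shares of all genes were 19.3% upward and 11.3% downward. With normexp and in the series matrix 0 of the 11 passed downward, and 5 passed upward in the series matrix. The receptor chains *Il13ra2*, *Il13ra1* and *Il4ra* had the largest ratios, 2.31, 1.86 and 1.59. *Jak3*, at -1.16, and *Il2rg*, at -0.79, which encode a kinase and a receptor chain of the pathway, were the lowest. None of the 9 genes measured in CD8+ T cells differed by 2-fold, where 2.66% of all genes were that much higher and 1.4% lower. In the series matrix 1 of the 9 was at least 2-fold higher, and 3.51% of all genes. The median of the 9, -0.02, turned to 0.12 in the series matrix and 0.03 under quantile normalization. *Il33*, an alarmin gene of stromal cells, had the largest ratio there, 0.93, and *Il13ra1* the lowest, -0.25. The cytokine gene *Il4* was well above background on both MSC arrays and on neither CD8+ T array. *Jak1* was the brightest gene of the list on the Wt MSC array, *Il33* on the *Sipa1*-/- MSC array and *Il2rg* on the CD8+ T arrays.

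Among other targets of alternative activation, 14 of 14 measured genes were higher in *Sipa1*-/- MSCs, 9 of them at least 2-fold. Their median of 1.37 fell to 0.68 with normexp. For all genes, 7917 of 15298 were higher, and 19.3% at least 2-fold. With the brightest probe of each gene 13 of 14 were higher, as that of *Mgl2* was at 5.76 in Wt and 5.46 in *Sipa1*-/- MSCs. Under the median shift 13 of 14 were higher as well. *Slc7a2*, an importer of arginine, was at 2.98, the chemokine gene *Ccl8* at 2.39 and the eosinophil-associated ribonuclease gene *Ear2* at 2.19. The level of *Slc7a2* on the Wt MSC array, -4.95, was near background, as the lowest level well above background there was -5.86. Fibroblast markers were higher in the same pair, 9 of 9 with 5 at least 2-fold, and their part was not tested. In *Sipa1*-/- mice 7 of 14 list genes were at least 2-fold higher in MSCs than in CD8+ T cells, and 3 lower. Over all genes 21.9% were higher and 18.7% lower. The higher list genes were led by *Tgm2* at 3.56, *Ccl8* at 3.34 and *Slc7a2* at 3.31. On the *Sipa1*-/- CD8+ T array *Slc7a2* was at -5.28, where the lowest level well above background was -5.49. It was not well above background on the Wt CD8+ T array. The list did not move one way in CD8+ T cells. There 8 of 13 measured genes were higher, or 5 under the median shift, with a median of 0.09 that turned to -0.06 under that shift. Of these 13, 2 were at least 2-fold lower, or 1 with normexp and in the series matrix. At least 2-fold higher were 0, or 1 in the series matrix. The shares of all genes in CD8+ T cells were 1.4% lower and 2.66% higher. *Chil3* and *Chil4*, which encode chitinase-like proteins, were at -1.13 and -1.11, *Tgm2*, the gene of transglutaminase 2, at -0.79, and *Ear2*, *Ccl8* and *Folr2* at 0.99, 0.85 and 0.68. The neutrophil list was lower in the same pair, with a median of -1.27, and its part in the lower values was not tested. *Mgl2*, a galactose-binding lectin of macrophages and dendritic cells, was the brightest gene of the list on 3 arrays and *Ccl8* on that of *Sipa1*-/- MSCs. *Ccl22* and *Lyve1* were not well above background on any array.

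Targets of classical activation, the response to interferon-γ and bacterial products, had a median of -0.09 in MSCs, which turned to 0.12 in the series matrix and 0.03 with no flags, with 3 of 14 measured genes at least 2-fold higher and 3 lower. *Il6*, *Nos2* and *Ptgs2* were at 2.35, 1.79 and 1.04, the last under 2-fold with the median shift and normexp, at 0.90 and 0.94, and *Gpr18*, *Il12a* and *Cd38* at -3.32, -3.19 and -3.15. In CD8+ T cells 0 of 14 were at least 2-fold higher and 3 were lower, where 2.66% and 1.4% of all genes were. The lower ones were *Il1b* at -2.31, *Ptgs2* at -2.15 and *Fpr2* at -1.92. The median of the 14 was -0.09 and turned to 0.05 in the series matrix. The lower genes stand beside the neutrophil list in CD8+ T cells, with its median of -1.27, and the B-lineage list in MSCs, at -4.16, and the part of these cells in them was not tested. *Il6*, *Ccl4* and *Cd86* had the largest ratios there, 0.85, 0.62 and 0.43. *Nos2*, the gene of inducible nitric oxide synthase, was at 0.01 and 1.80 on the Wt and *Sipa1*-/- MSC arrays and at -0.62 and -0.78 on the CD8+ T arrays.

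The genes with the most similar course over the 4 arrays were found by the Euclidean distance of levels centered on each gene's mean, among 12913 genes. Nearest to *Retnla* was *Mmp12*, the gene of macrophage elastase, at a distance of 0.26, followed by *Fndc5* at 0.63 and *Gpat2* at 0.71. *Mmp12* was at -5.19 and -2.20 on the Wt and *Sipa1*-/- MSC arrays and at -3.67 and -2.15 on the CD8+ T arrays. On the Wt MSC array *Mmp12* and *Gpat2*, the latter at -5.56, were near background, as the lowest level well above it was -5.86.

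*Ntrk3* and *Dpep2* were among the 3 nearest to both *C1qa* and *C1qb*, with *Rtn4rl1* as the nearest to *C1qa* and *Zyx* as the third for *C1qb*. *Naaa*, *Notch4* and *Ushbp1* were nearest to *Mrc1*, and *Serpinb9*, *Izumo4* and *P2ry14* to *Adgre1*. *Crim1*, *Cd300c2* and *Mllt6* were nearest to *Cd68*, *Tgoln1*, *Man2b1* and *Kif3b* to *Csf1r*, and *Cdnf*, *Rdh9* and *Mup2* to *Lyz2*. Among the members themselves, the closest pairs were *Mrc1* with *C1qa* at 0.20 and *Adgre1* with *C1qa* at 0.21, while *Lyz2* and *Retnla* lay farthest apart, at 2.69.

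Promoter sequences from RefSeq, build GRCm38.p6, were held for 6 of the 9 members, *Cd68*, *Lyz2*, *Mrc1*, *Cd163*, *C1qb* and *Retnla*. The 250 bases before each start were searched on both strands for the letters TTCNNNNGAA, a STAT6 motif that reads the same on either strand, and for GAGGAA, the core bound by PU.1. The STAT6 letters occurred in 1 of these 6 promoters and in 5.85% of all 32851 promoters of this length. That promoter is of *Retnla*, the member with the largest ratio in MSCs, and it is shown for that reason with the matched letters in capitals. It lies at chr16:48842359-48842608 on the plus strand, and the match begins 145 bases before the start.
Retnla: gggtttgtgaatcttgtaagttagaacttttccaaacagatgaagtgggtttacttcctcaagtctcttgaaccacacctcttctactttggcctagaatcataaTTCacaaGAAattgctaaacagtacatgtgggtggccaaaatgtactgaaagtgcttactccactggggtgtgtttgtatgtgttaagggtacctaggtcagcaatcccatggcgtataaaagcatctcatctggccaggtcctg

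The PU.1 core occurred in 4 of the 6 promoters, those of *Cd68*, *Mrc1*, *C1qb* and *Retnla*, and in 23.3% of all promoters. *Mrc1* held 3 matches, all on the minus strand, the most of the 6, and its promoter at chr2:14229164-14229413 on the plus strand is shown with them in capitals.
Mrc1: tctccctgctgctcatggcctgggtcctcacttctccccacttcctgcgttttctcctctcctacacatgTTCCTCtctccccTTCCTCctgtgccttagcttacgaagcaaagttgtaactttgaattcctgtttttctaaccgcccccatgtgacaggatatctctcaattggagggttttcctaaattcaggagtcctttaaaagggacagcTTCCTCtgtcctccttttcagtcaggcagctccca
A match describes these letters in this window and not the binding of a factor.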

How the data were processed

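The deposited scanner values are spot intensities of one-color Agilent arrays, corrected for background by the authors with Feature Extraction, version 12.0.3.1 per the file headers and 9.1 per the submitters' notes, and not normalized between arrays. The other deposited values used are spot flags. The authors' series matrix holds the same intensities on a linear scale, not centered and each array multiplied by its own constant, with medians of 41.0, 52.0, 25.5 and 30.9 for Wt MSCs, *Sipa1*-/- MSCs, Wt CD8+ T cells and *Sipa1*-/- CD8+ T cells. How the constants were chosen is not given in the sources used here. The 4 arrays lie on 1 slide with 1 scan. Of 62976 spots per array, 59305 were not controls. Between 60.3% and 65.3% of these were well above background, and the 75th percentile of signal was between 16.4 and 19.7 times the median background.

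From each log2 intensity the array's 75th percentile was subtracted. Spots had to pass the flags of the authors' methods, for saturation, uniformity and background, and passing on both arrays of a pair was required here. Values were averaged first over spots with the same probe, then over the gene's probes. Accessions were matched without versions to RefSeq symbols of GRCm38.p6, which named 57.6% of spots. Summed list signals used the brightest probe of each gene. *Clec7a* and *Ly6g* of the lists had no matched probe. The results of 1 chosen member and 2 list genes are not reported here. Genes were named as the 9 members, as up to 3 with the largest ratios in each direction per list and the brightest of a list, and as the 3 nearest courses without predicted or clone names, with a few more chosen after their values were seen. The members and lists were chosen with earlier results of these data known. Alternatives were median shift, quantile normalization, the series matrix, normexp on the median spot signal with an offset of 50, flags on 1 array, no flags and the brightest probe. The scripts were checked on simulated data. R 4.3.3 with limma 3.58.1 ran normexp, and Python 3.11.15 with pandas 2.3.3 and numpy 2.4.6 the rest.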

Additional observations from a re-analysis of the deposited data

Results flagged for a closer look

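*Lyz2* differed in direction between the cell types, where the log2 ratio of *Sipa1*-/- over Wt was 0.30 for MSCs against -0.55 for CD8+ T cells. *Cd163* did so too, at least 2.31-fold higher in *Sipa1*-/- MSCs, or at 0.53 with no flags, but at -0.77 in CD8+ T cells, from a probe close to background, and this value shrank to -0.15 with normexp. Of the related genes, *Cebpb*, with 1.20 for MSCs against -1.20 for CD8+ T cells, and *Ptgs2*, at 1.04 and -2.15, passed 2-fold in opposite directions, though *Ptgs2* in MSCs fell to 0.90 with median shift and 0.94 with normexp. Neutrophil markers were lower in *Sipa1*-/- CD8+ T cells as well, with a median of -1.27, and their part in these values was not tested. With 1 array per condition these differences were not tested.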

How the results depend on the processing

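No paired analysis was possible because a single array stands for every condition. A median was taken as moved when it shifted by more than 0.062, the SD that spot noise gives a log2 ratio. Of the 4 medians over the members, 3 kept their sign under the 7 alternatives, and that in CD8+ T cells turned with the median shift. The causes of the moves below were not tested. With no flags the median between the cell types in *Sipa1*-/- is the value of *Adgre1*, whose second probe, not well above background on any array, then enters.

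The median in MSCs, 1.02, was 0.88 with median shift, 1.22 with the series matrix and 0.78 with normexp. The median in CD8+ T cells, 0.12, was -0.0305 with median shift and 0.25 with the series matrix. The median of MSCs over CD8+ T cells in Wt, -2.01, was -2.24 with median shift, -1.55 with the series matrix, -1.54 with normexp and -1.87 with no flags. In *Sipa1*-/-, at -1.12, it was -1.34 with median shift, -0.59 with the series matrix, -0.97 with normexp and -0.51 with no flags. With normexp, on the median spot signal with an offset of 50, 1 member instead of 4 was at least 2-fold higher in MSCs.

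Of single members, no sign changed among 56 values in MSCs and 56 between the cell types in Wt, 4 of 63 changed in CD8+ T cells and 3 of 63 between the cell types in *Sipa1*-/-. The side of the 2-fold limit changed for 8, 1, 0 and 8 of these values.

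Over all genes the median was 0.04 (MSCs) and -0.02 (CD8+ T cells), and it was -0.10 and -0.17 with median shift and 0.25 and 0.11 with the series matrix. Between the cell types it was -0.06 in Wt and -0.18 in *Sipa1*-/-, -0.29 and -0.41 with median shift, and 0.39 and 0.34 with the series matrix. Of the genes past 2-fold, 63.1% were higher in MSCs and 65.5% in CD8+ T cells, against 74.1% and 76.3% with the series matrix, 54.1% and 52.5% with median shift, and in CD8+ T cells 52.4% with normexp. Between the cell types 57.4% were higher in Wt and 54.0% in *Sipa1*-/-, against 76.6% and 76.3% with the series matrix and 45.5% and 42.9% with median shift.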
